A study of Rattus with 6 samples.

Results

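Tmem190, Fam71e2 and Cox6b2 are the genes that lie directly beside Il11 on rat chromosome 1. They were picked by name from a table of read counts because their counts were lower with dexamethasone than in the controls, so they are 3 of 30211 genes in all, and all 3 were found in the table. Their difference between the groups is what chose them. It is therefore given as a description, with no test, and the same holds for Il11, which was set beside them.

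RNA was sequenced from wild-type rat bone marrow mesenchymal stem cells (BMSC), the stromal cells of marrow that can form bone, fat and cartilage. The 3 control libraries came from cells grown for 4 days without dexamethasone, a synthetic glucocorticoid, and the 3 dexamethasone libraries from cells grown for 4 days with it at 100 uM. The labels name no vehicle for the controls. Nor do they tell whether the replicates of a group came from separate cultures, and p-values then measure how far these samples varied, which can be technical variation alone. Groups were taken from the titles, because the treatment tag reads DEX for all 6 samples.

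Interleukin-11 is a secreted cytokine of the interleukin-6 family. It binds its own receptor chain together with the shared receptor gp130, which signals through Janus kinases and STAT3, and it was first found as a product of marrow stroma. Its neighbours are known from other settings. Tmem190 encodes a small membrane protein with a trefoil domain that is known from sperm. Fam71e2, now named Garin5b, belongs to a family of Golgi-associated proteins that bind the small GTPase RAB2 and are mostly made in testis. Cox6b2 encodes the testis form of a subunit of cytochrome c oxidase, the last enzyme of the respiratory chain, whose common form is Cox6b1.

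The libraries held 34835072 to 41676315 counts. Known targets of the glucocorticoid receptor separated the groups as labelled: Fkbp5, Tsc22d3 and Per1 were higher in 3 of 3 dexamethasone libraries, with log2 fold changes of 4.29 ± 0.046, 2.88 ± 0.076 and 1.62 ± 0.059 (SE). Of 14111 tested genes, 9027 (64.0%) were called, 4559 up and 4468 down, by edgeR's quasi-likelihood fit at a Benjamini-Hochberg adjusted p under 0.05. The common biological coefficient of variation that edgeR estimated between the libraries of a group was 3.66%. Of the 8 listed markers of marrow stroma, 7 were in the table, and all 7 were tested, of which 1 rose, 5 fell and 1 did not pass. The share called was 85.7%, against 64.0% of all tested genes. Over all tested genes 31.7% fell. The largest falls were in Prrx1, from 727 ± 19.2 to 75.6 ± 2.51 CPM (each library's counts divided by its TMM-scaled size, SD, n = 3), in Pdgfrb, from 616 ± 11.8 to 137 ± 7.94 CPM, and in Col1a1, from 1138 ± 16.4 to 665 ± 8.43 CPM. Nt5e rose, from 15.6 ± 0.780 to 23.7 ± 0.482 CPM, and Thy1, at 133 ± 1.93 and 134 ± 0.049 CPM, did not pass. Eng, 1 of the 5 that fell, was lost when a library was left out (edgeR, adjusted p up to 0.255).

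The genes lie close together. Coordinates are those of the table, whose rat build no source used here names. Il11 runs on the plus strand of chromosome 1 from 72635267 to 72643255 and has 6 exon blocks with 1691 bases of exon. Fam71e2 follows on the same strand, from 72644333 to 72661000, with 12 exon blocks and 3021 bases of exon, and 1077 bases separate it from the 3′ end of Il11. Cox6b2, from 72661211 to 72662434, is again on the plus strand, with 4 exon blocks and 470 bases of exon, and begins 210 bases beyond Fam71e2. Il11, Fam71e2 and Cox6b2 thus point the same way, in that order.

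Tmem190 lies on the other side of Il11. It runs on the minus strand from 72630238 to 72632185, with 5 exon blocks and 970 bases of exon, so it points away from Il11, and 3081 bases separate the start of one from the start of the other. No exon of these 4 genes overlapped an exon of another gene in the table within 100 kb. No source used here states whether reads were counted by strand. The gene order of the rat RefSeq table (assembly GRCr8), used for names and neighbours only, places the 4 genes next to each other in the same order.

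Il11 was among the most highly counted genes in the controls and was nearly absent with dexamethasone. Its controls held 20477, 21017 and 22257 counts, and its dexamethasone libraries 44, 22 and 18. In TMM-scaled CPM this was 540 ± 14.1 against 0.703 ± 0.307 (SD, n = 3), a log2 difference of -9.56 ± 0.33 (SE). The control level lay above that of 97.7% of tested genes.

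Fam71e2, the first gene downstream, went from a steady count to none at all. The controls held 239, 255 and 233 counts, and all 3 dexamethasone libraries held 0. The control level was 6.16 ± 0.321 CPM (SD, n = 3), with a coefficient of variation of 5.21%. Set against a floor of 6 counts over the group, which stands for 3 read pairs, Fam71e2 was at least 121-fold lower with dexamethasone. Among the 17 tested genes with no count in any dexamethasone library, 6 had 100 or more counts over the controls, and Fam71e2 had the most, 727. The next, Zbp1, had 300.

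Cox6b2, the second gene downstream, showed the same presence and absence at a lower count. The controls held 38, 32 and 48 counts, and the 3 dexamethasone libraries 0. The control level was 0.999 ± 0.195 CPM (SD, n = 3), at least 19.7-fold above the floor over the dexamethasone group. Its controls varied more than those of Fam71e2, with a coefficient of variation of 19.5%. With 118 counts over the controls, it was the fifth of the 6 genes just described.

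Tmem190, upstream and on the other strand, did not fall to 0 in every library. The controls held 45, 43 and 41 counts, and the dexamethasone libraries 3, 2 and 0. In CPM this was 1.09 ± 0.071 against 0.043 ± 0.038 (SD, n = 3). Counted as read pairs, the ratio of control to dexamethasone was 21.7, with an exact 95% binomial interval of 7.09 to 108 that covers counting error only. Its log2 difference was -3.71 ± 0.40 (SE). The groups did not overlap for any of the 4 genes, and every dexamethasone library lay below every control library for 33.1% of all tested genes. That share is printed for scale only, because these genes were chosen for being lower.

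**Figure D1:**
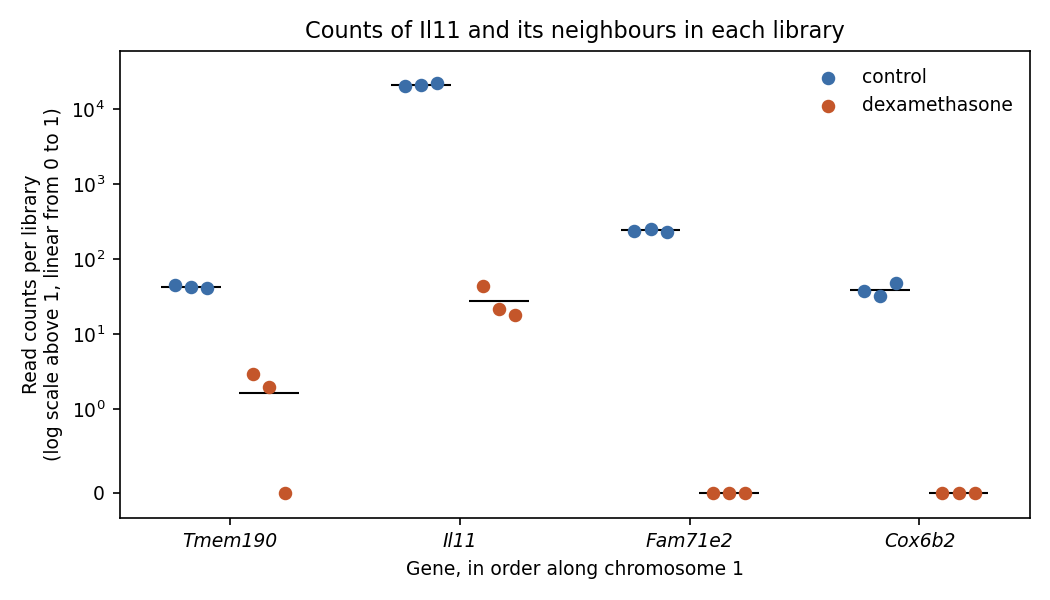
Read counts per library (points; vertical axis logarithmic above 1 and linear from 0 to 1) for Tmem190, Il11, Fam71e2 and Cox6b2 in 3 control and 3 dexamethasone libraries, with group means as bars. The control points of each gene sit together, and the dexamethasone points of Fam71e2 and Cox6b2 all lie at 0.

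The log2 differences for Fam71e2 and Cox6b2, taken between group means of log2 CPM, depend on the count added before the logarithm and are not bounds. With a prior count of 2 they were -6.93 and -4.35, and with 0.5 they were -8.92 and -6.30. The corresponding values for Tmem190 were -3.71 and -4.72. All 3 genes passed the filter on low counts only through their controls, so a difference was bound to appear among them once they were tested.

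Levels can be compared between genes only per length of exon. On that scale Il11 stood at 319 ± 8.35 CPM per kilobase in the controls (SD, n = 3). Cox6b2 and Fam71e2 stood at 2.12 ± 0.414 and 2.04 ± 0.106 CPM per kilobase, which did not differ beyond their spread. The ratio of Fam71e2 to Cox6b2 per length was 0.979, 1.24 and 0.755 in the 3 controls, so it lay on both sides of equality. Tmem190 was lower, at 1.13 ± 0.073 CPM per kilobase. Fam71e2 exceeded it per length in each control, by 1.81 ± 0.10 times (SD, n = 3).

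Set against Il11 within the same library, the neighbours were small and steady in the controls. Fam71e2 had 1.17, 1.21 and 1.05 counts for every 100 of Il11. Cox6b2 had 0.186, 0.152 and 0.216, and Tmem190 had 0.220, 0.205 and 0.184. Per length of exon, the control levels of Fam71e2, Cox6b2 and Tmem190 were 0.639% ± 0.048, 0.664% ± 0.114 and 0.354% ± 0.031 of that of Il11 (SD, n = 3).

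With dexamethasone Il11 itself had only 84 counts over 3 libraries, which limits what such a ratio can show. At the control ratio, 84 counts of Il11 would go with 0.958 counts of Fam71e2 and 0.155 of Cox6b2, and 0 were seen for both. A fall in their ratio to Il11 was therefore not detectable at this depth. A rise could have been seen only above the floor, which is 7.14 counts for every 100 of Il11, and none was. Tmem190 would have 0.170 counts at the control ratio, and 5 were seen, 5.95 for every 100 of Il11. Its ratio to Il11 was 6.82, 9.09 and 0 in the 3 dexamethasone libraries, from 3, 2 and 0 counts.

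**Figure D2:**
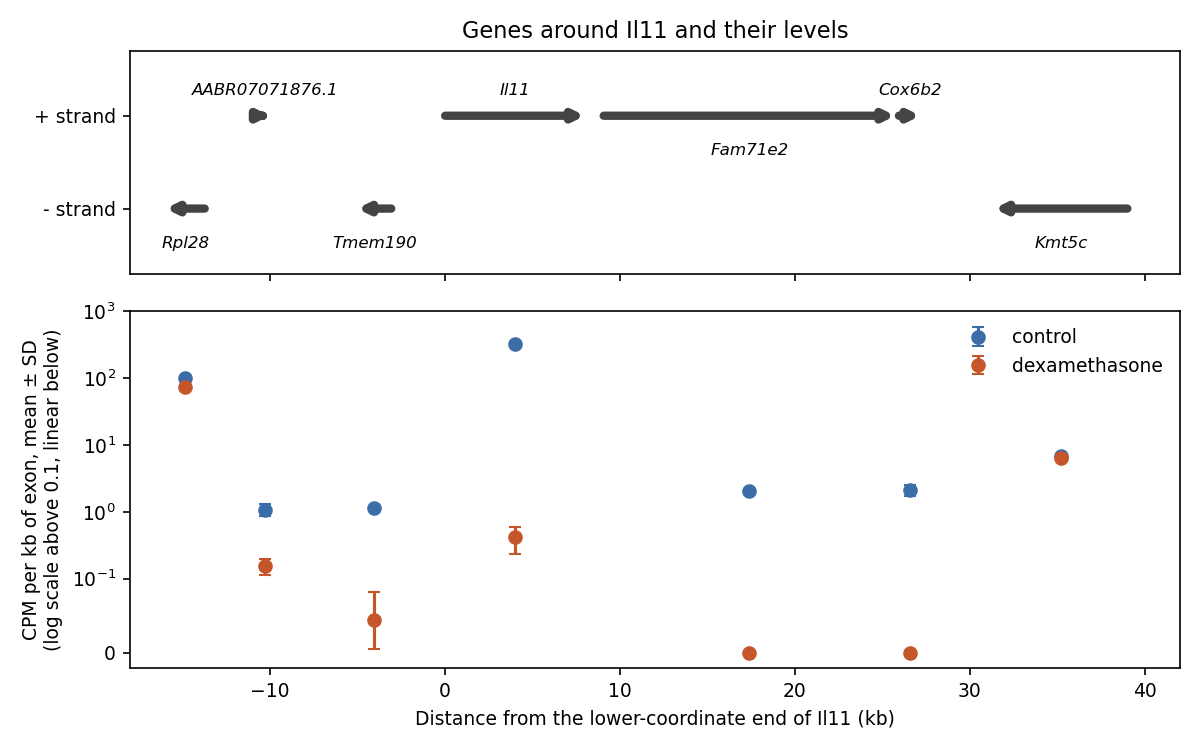
Upper panel: genes near Il11 as arrows in the direction of transcription, by strand and distance from the lower-coordinate end of Il11 in kilobases. Lower panel: the level of each gene in CPM per kilobase of exon (mean ± SD, n = 3; logarithmic above 0.1, linear below), where the genes from AABR07071876.1 to Cox6b2 are lower with dexamethasone while Rpl28 and Kmt5c at the edges are close in both groups.

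The stretch of strongly lowered genes ended sharply on the downstream side. Kmt5c, which encodes a methyltransferase of histone H4, lies on the opposite strand, with its 3′ end 4230 bases beyond Cox6b2. It had 672, 594 and 664 counts in the controls and 658, 534 and 641 with dexamethasone. Its level was 16.4 ± 1.2 and 15.5 ± 0.330 CPM, and it did not pass (edgeR, Benjamini-Hochberg adjusted p = 0.381). Tmem150b, the next gene, had 8, 23 and 9 counts in the controls and 10, 2 and 4 with dexamethasone, and was not tested. Brsk1, a protein kinase, went down from 12.1 ± 0.871 to 6.67 ± 0.610 CPM, with a log2 fold change of -0.85 ± 0.098 (SE; edgeR, Benjamini-Hochberg adjusted p = 1.2e-10). Hspbp1, which encodes a binding partner of the chaperone Hsp70, stood at 20.2 ± 0.506 and 21.4 ± 1.80 CPM and did not pass (edgeR, Benjamini-Hochberg adjusted p = 0.254).

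On the upstream side a further short gene was lower. AABR07071876.1, named after a rat contig and placed on chromosome 1 from 72624705 to 72625239 on the plus strand, lies 4998 bases from Tmem190. The RefSeq order lists Tmem238 between Rpl28 and Tmem190, and whether it is the same gene was not tested. AABR07071876.1 had 17, 24 and 27 counts in the controls and 4, 2 and 4 with dexamethasone. Its log2 fold change was -2.22 ± 0.23 (SE; edgeR, Benjamini-Hochberg adjusted p = 1.3e-05), and its groups did not overlap. Like the 3 neighbours, it passed the filter on low counts only through its controls. A lower level was therefore bound to appear once it was tested, and its p-value adds no separate support. Per length it stood at 1.08 ± 0.227 CPM per kilobase in the controls (SD, n = 3), which did not differ from Tmem190 beyond their spread.

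Beyond that gene the changes were small. Rpl28, a protein of the large ribosomal subunit, went down from 155 ± 4.50 to 112 ± 0.779 CPM, with a log2 fold change of -0.47 ± 0.025 (SE; edgeR, Benjamini-Hochberg adjusted p = 5.4e-17). Ube2s, a ubiquitin-conjugating enzyme of mitotic exit, rose from 49.4 ± 2.74 to 54.3 ± 2.90 CPM (log2 0.14; edgeR, Benjamini-Hochberg adjusted p = 0.0113). With a fixed coefficient of variation of 0.2, a setting chosen after seeing the data, neither gene passed (edgeR, adjusted p = 0.142 and 0.770), and Ube2s was also lost when a replicate was left out (adjusted p up to 0.0968). Shisa7 and Isoc2b did not pass (log2 0.45 and -0.0066; edgeR, Benjamini-Hochberg adjusted p = 0.382 and 0.913).

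Over the wider region the genes around Il11 moved both ways, and the share called, without regard to the size of the change, was below that of genes at large. Within 500 kb on either side the table listed 48 genes, of which 36 were tested. Leaving out Il11 and its 3 neighbours, 16 of 32 tested genes (50%) were called, 5 up and 11 down, against 64.0% of all tested genes. Of these, U2af2, Fiz1, Ube2s and Ppp6r1 were lost when a library was left out. Their median log2 fold change was -0.091, against -0.00098 over all tested genes. Of these 32 genes, 2 (6.25%) were called and at least 4-fold lower, against 2.74% of all tested genes. Both, AABR07071876.1 and Syt5, passed the filter on low counts only through their controls.

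The 6 other genes of the region with the largest changes were AABR07071876.1, Syt5, Ptprh, Dnaaf3, Brsk1 and Tnni3. Syt5, a synaptotagmin, and Ptprh, a receptor tyrosine phosphatase, fell (log2 -2.15 ± 0.16 and -1.71 ± 0.29, SE) from 0.406 and 0.951 CPM in the controls (edgeR, Benjamini-Hochberg adjusted p = 7.3e-05 and 2.8e-05). Both passed the filter on low counts only through their controls, so a fall was bound to appear once they were tested. Dnaaf3, which helps to assemble the dynein arms of cilia, rose from 0.338 ± 0.058 to 1.17 ± 0.299 CPM (edgeR, Benjamini-Hochberg adjusted p = 1.5e-05). Tnni3, cardiac troponin I, did not pass (log2 0.81 ± 0.37, SE; edgeR, Benjamini-Hochberg adjusted p = 0.0754). The listed spans of Dnaaf3 and Tnni3 overlap on the plus strand, and whether their values are independent was not tested. Ptprh, Syt5 and Dnaaf3 lie 196, 225 and 239 kb from Il11 between gene middles, well outside the run of lowered genes at Il11.

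**Figure D3:**
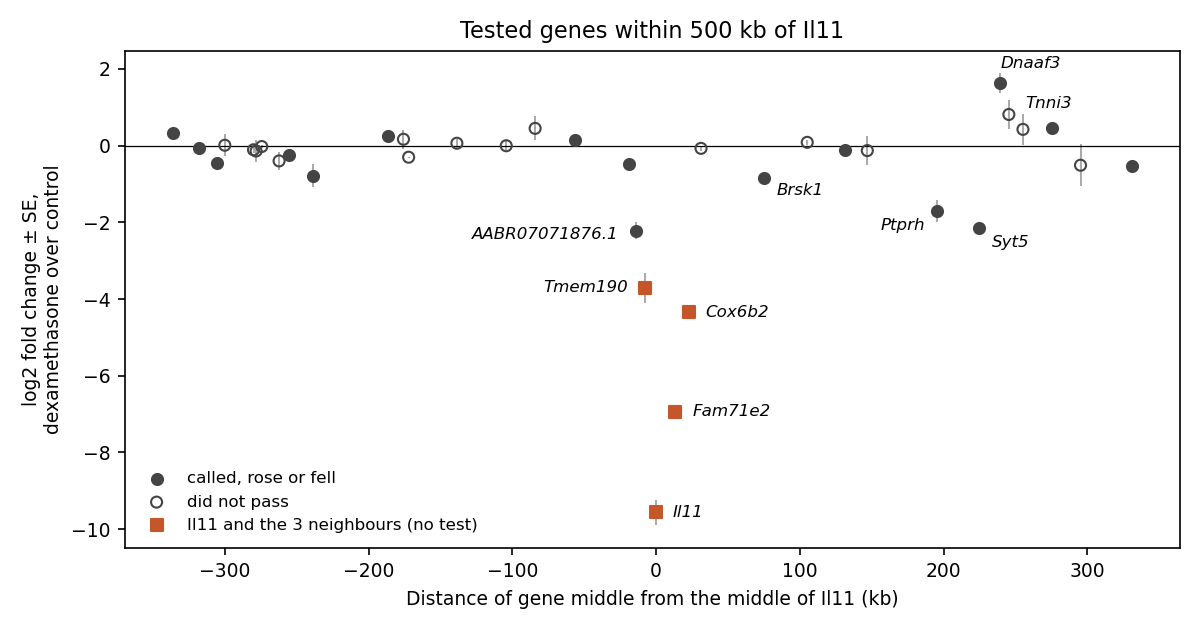
Log2 fold change (± SE) of the 36 tested genes within 500 kb of Il11 by distance between gene middles in kilobases; filled circles were called, open circles did not pass, and squares are Il11 and its 3 neighbours, shown without a test. Apart from the squares, 2 genes were called and at least 4-fold lower, AABR07071876.1 beside Tmem190 and Syt5 at 225 kb.

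Along the whole genome, tested genes that were called and at least 4-fold lower mostly stood alone. Of the uninterrupted runs of such genes along a chromosome, 278 held 1 gene, 31 held 2, 11 held 3, 2 held 4 and 1 held 5. The run of 5 was AABR07071876.1, Tmem190, Il11, Fam71e2 and Cox6b2. The runs of 4 were the chemokine genes Cxcl2, Cxcl1, Cxcl3 and Cxcl6 on chromosome 14, and Arsi, Camk2a, Slc6a7 and Pdgfrb on chromosome 18. The run at Il11 holds the genes chosen for being lower, so its length is a description. These genes and those of the next paragraphs were named by their place beside a lowered gene, after their values were seen.

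The neighbours of other strongly lowered genes give a scale for those of Il11. There were 165 genes called, at least 4-fold lower and with a control mean of at least 10 CPM, here called anchors, each with its nearest tested gene on either side. Leaving out Il11, the nearest gene downstream on the same strand was called and at least 4-fold lower for 15 of 80 anchors (18.8%), and the nearest gene upstream on the opposite strand for 15 of 66 (22.7%). Over all tested genes the share was 2.74%. These are the positions of Fam71e2 and of Tmem190. With anchors at least 16-fold lower, again leaving out Il11, the shares were 8 of 19 (42.1%) and 2 of 17 (11.8%). A neighbour can itself be an anchor, as in the chemokine clusters, so the pairs are not independent.

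**Figure D4:**
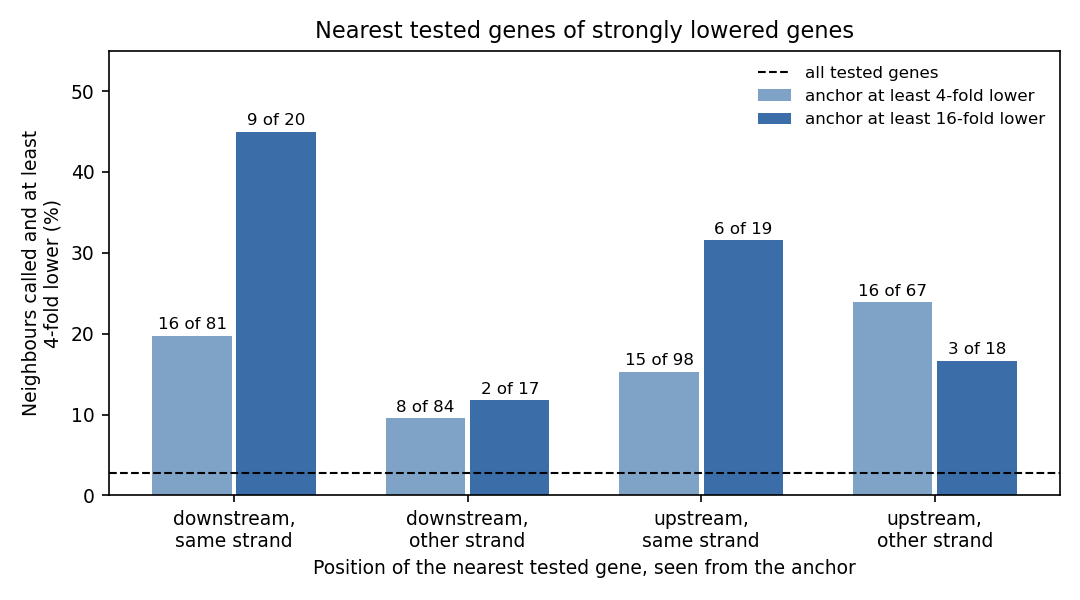
Share of nearest tested genes (%) that were called and at least 4-fold lower, by position and strand relative to the anchor, for anchors at least 4-fold lower (light) and at least 16-fold lower (dark), Il11 included; numbers above bars are neighbours lowered of neighbours in all. The dashed line marks 2.74%, the share over all tested genes, and all 8 bars stand above it.

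Fam71e2 lay close to its anchor and was faint relative to it. With Il11 included, 16 anchors had a downstream neighbour on the same strand that was at least 4-fold lower. In the controls that neighbour's level per length ran from 0.110% to 6029% of its anchor's, and it was under 2% for 5 of the 16, a limit chosen after the values were seen. Fam71e2 was at 0.639% of Il11, with a gap of 1077 bases. The others were Cxcl2 beside Cxcl1 (1.04%, gap 10293 bases), Zbp1 beside Pmepa1 (1.73%, gap 8318 bases), Pdc beside Ptgs2 (0.151%, gap 186094 bases) and AABR07066820.1 beside Vegfa (0.110%, gap 144873 bases). Zbp1, a sensor of nucleic acids, fell from 2.54 CPM in the controls to no count, and Pdc from 0.701 CPM to no count.

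The 3 genes with the profile nearest to that of each neighbour are given as a description, because the profiles hold the same difference that chose the neighbours. Likeness was the root mean square difference over 6 libraries between profiles of log2 CPM set to the control mean, among 12117 tested genes with a control mean of at least 1 CPM. Closest to Fam71e2 were the chemokine gene Cxcl6 (0.122), the prostaglandin synthase gene Ptgs2 (0.131) and the chemokine gene Ccl2 (0.180). Closest to Cox6b2 were Nr4a2, a nuclear receptor (0.164), Tfpi2, a protease inhibitor (0.181), and Inhba, a subunit of activin (0.207). Closest to Tmem190 were Tent5c (0.227), Asic4, an ion channel (0.241), and the chemokine receptor gene Ccr1 (0.263). All 9 lie on other chromosomes than Il11. Because Fam71e2 and Cox6b2 had no count with dexamethasone, the prior count of 2 sets how low their profiles go, and with it which genes come closest.

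The common subunits of cytochrome c oxidase were called about as often as genes at large, in both directions. Of the 10 listed common nuclear subunits of cytochrome c oxidase, 9 were in the table, and of these 4 rose, 2 fell and 3 did not pass, so 66.7% were called against 64.0% of all tested genes. Their median log2 fold change was -0.0023, against -0.00098 over all tested genes. Cox6b1, the common form of the same subunit, had 30.9 ± 1.48 CPM in the controls and 40.3 ± 2.15 with dexamethasone, a log2 fold change of 0.38 ± 0.060 (SE; edgeR, Benjamini-Hochberg adjusted p = 3.1e-08). Its exons are listed on more than 1 chromosome, so a copy may account for part of its reads. Cox7b rose (log2 0.29) and Cox5b fell (log2 -0.12), with edgeR, Benjamini-Hochberg adjusted p = 2.6e-10 and 4.7e-04. None of these 3 passed with that fixed coefficient of variation (edgeR, adjusted p = 0.272, 0.431 and 0.793).

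The other tissue forms of cytochrome c oxidase subunits had few counts or none. Cox7b2, Cox8b and Cox8c had no count in any library, so up to 0.170 CPM is allowed in the library of least depth. Cox7a1 had 36 counts over the controls and 24 with dexamethasone and did not pass (edgeR, Benjamini-Hochberg adjusted p = 0.342). Cox6a2, a muscle form, had 30 and 1 counts, and Cox4i2, a lung form, had 24 and 6. Neither passed the filter on low counts, so neither was tested with it. With no filter Cox6a2 passed and Cox4i2 did not (edgeR, Benjamini-Hochberg adjusted p = 5.7e-04 and 0.0890), and the same held with DESeq2 (adjusted p = 0.00235 and 0.114).

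Relatives of Fam71e2 also had low counts. Fam71e1 had 204 counts over the controls and 234 with dexamethasone and did not pass (edgeR, Benjamini-Hochberg adjusted p = 0.450). Fam71f1 fell from 52 to 16 counts, a log2 fold change of -1.48 ± 0.44 (SE; edgeR, Benjamini-Hochberg adjusted p = 0.00413). It passed the filter on low counts only through its controls, so a fall was bound to appear once it was tested. Fam71a and Fam71f2 each had 6 counts over the controls and 0 with dexamethasone, Fam71d had 0 and 2, and Fam71b had 0 in all libraries. The other listed trefoil genes, Tff1, Tff2 and Tff3, had no count in any library.

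The tested genes of interleukin-11 signalling other than the cytokine fell or did not pass. Of 5 tested signalling genes other than Il11, 0 rose, 3 fell and 2 did not pass. The share called was 60%, against 64.0% of all tested genes, of which 31.7% fell and 32.3% rose. Their median log2 fold change was -0.40. Il6st, which encodes gp130, fell from 993 ± 9.68 to 715 ± 9.07 CPM, and Il11ra1, the specific receptor chain, from 21.6 ± 0.337 to 16.3 ± 0.626 CPM. Socs3, a feedback inhibitor induced by STAT3, fell from 31.2 ± 1.73 to 22.4 ± 1.94 CPM. For Il6st, Il11ra1 and Socs3 the adjusted p was 3.3e-21, 1.1e-06 and 7.6e-09 (edgeR's quasi-likelihood test, Benjamini-Hochberg), and none of them passed with the fixed coefficient of variation (adjusted p = 0.138, 0.242 and 0.142). Jak1 and Stat3 did not pass (edgeR, Benjamini-Hochberg adjusted p = 0.0833 and 0.50).

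Because the neighbours are best known from testis, markers of germ cells and sperm were read beside them. Of 18 listed genes, 4 (Sycp1, Prm1, Tnp1 and Pgk2) had no count in any library, and 3 were tested, of which 0 rose, 0 fell and 3 did not pass. Over all tested genes 64.0% were called. The 3 had few counts (Sycp3 128 over the controls and 87 with dexamethasone, Tssk6 20 and 44, Ldhc 17 and 33). Their not passing therefore says little about germ cell genes. Izumo1, with 41 and 15 counts, was not tested. The summed level of the listed genes ranged from 1.67 to 2.53 CPM in the controls and from 1.59 to 1.77 CPM with dexamethasone. The highest was Sycp3, at 1.08 ± 0.180 and 0.731 ± 0.243 CPM. Markers of ciliated and mucous epithelium summed to 0.456 to 0.675 CPM and 0.592 to 0.640 CPM, with 1 tested gene, Tekt1, which did not pass.

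Macrophage markers were at low levels in both groups. Of 8 listed, 6 were tested, of which 0 rose, 3 fell and 3 did not pass, so 50% were called against 64.0% of all tested genes. Over all tested genes 31.7% fell. Adgre1 had no count in any library, and Itgam, with 27 control counts against 2, was not tested with the filter on low counts. With no filter Itgam passed (edgeR, Benjamini-Hochberg adjusted p = 0.00427), as it did with DESeq2 (adjusted p = 0.0120). The summed level of the macrophage markers ranged from 11.7 to 12.3 CPM in the controls and from 8.71 to 9.61 CPM with dexamethasone. Those that fell were Cd74, from 1.74 to 0.139 CPM, Cd68, from 1.21 to 0.509 CPM, and Lyz2, from 0.467 to 0.133 CPM. Cd74 and Lyz2 passed the filter on low counts only through their controls. Cd14, the highest of the list, stood at 7.27 ± 0.468 and 7.65 ± 0.187 CPM and did not pass, and neither did Ptprc, at 0.796 ± 0.412 and 0.643 ± 0.040 CPM, nor Csf1r (edgeR, Benjamini-Hochberg adjusted p = 0.544, 0.449 and 0.0682). The part of these markers in the levels of the neighbours was not tested, and in such bulk samples fewer cells of a type and less RNA per cell cannot be told apart.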

How the data were processed

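The deposited values were raw read counts per gene in a single table, with chromosome, start, end, strand and exon length of each gene, per the file headers. No source used here names the aligner, counting program or strand setting. The build named in the submitters' processing notes is mm10, a mouse build, while the gene names are of rat, so the coordinates are those of the table and their build is unknown. Total RNA was made into libraries with a SMARTER mRNA-seq kit, per the labels' protocols.

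The filterByExpr function of edgeR, given the groups, kept 14111 genes, and counts were scaled by TMM. Genes were tested with edgeR 4.0.16 (R 4.3.3) by the quasi-likelihood test with robust estimation and Benjamini-Hochberg adjustment over all tested genes. Log2 fold changes are dexamethasone over control, from log2 CPM with a prior count of 2, with SE from the spread between libraries. Low values came in steps of 2 more often than not (70.3% of 26067 values between 1 and 20 were even), so 6 counts, taken as 3 read pairs, served as the floor, and the ratio for Tmem190 was computed on counts halved to pairs (rounded up), with scaling by library size. Intervals and floors cover counting error only. Genes with exons on several chromosomes or strands, or more than 1000 kb apart (111 genes), were left out of the description by position. The code was tested on simulated data. DESeq2 1.42.0 was run as an alternative.

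The members and the gene lists were chosen with earlier results of these data known. Genes were named by a fixed rule: Il11 and its 3 neighbours, all genes with a count within 100 kb, the 6 largest changes among the other tested genes within 500 kb, the 3 most similar profiles for each neighbour, and up to 3 genes of each list by smallest p. Further genes of some lists and of the region within 500 kb were named beside these. Motifs in promoters, which had been planned, were not analysed here. Titles give both groups replicates 1 to 3, but deviations of same-numbered libraries from their group means were uncorrelated (0.0026, -0.0078 and 0.020 over 14111 genes), so the numbers were not treated as pairs.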

Additional observations from a re-analysis of the deposited data

How the results depend on the processing

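The number of genes called (9027) and the number called within 500 kb of Il11 (20, Il11 and its neighbours included) stayed within 1.5 times of these values with other size factors, library size alone, no filter on low counts, DESeq2, and each library left out in turn (8570 to 8757, and 17 to 20). With the replicate block they were 8991 and 20. With the coefficient of variation set to 0.2 they were 3693 of 14111 and 10 of 36 tested genes. Against a fold of 1.5 they were 2827 of 14111 and 9 of 36, and both settings were chosen after seeing the data. Within 200 kb, 11 of 19 tested genes were called. All these counts around Il11 include it and its 3 neighbours, which were chosen for being lower. They therefore do not show how stable the calls in the rest of the region are. Among those, U2af2, Fiz1, Ube2s and Ppp6r1 were lost when a library was left out (edgeR, adjusted p up to 0.131, 0.122, 0.0968 and 0.0706), and the others held. With the coefficient of variation set to 0.2, only AABR07071876.1, Zfp579, Brsk1, Ptprh, Syt5 and Dnaaf3 of the rest still passed. Leaving out each library, the log2 difference ranged from -9.86 to -9.29 for Il11, -3.93 to -3.31 for Tmem190, -6.97 to -6.90 for Fam71e2 and -4.49 to -4.21 for Cox6b2. DESeq2 gave -4.69, -10.36 and -7.74 for Tmem190, Fam71e2 and Cox6b2, and a prior count of 0.5 gave -4.72, -8.92 and -6.30. Counts per 100 of Il11 in the controls ranged from 0.194 to 0.212, 1.11 to 1.19 and 0.169 to 0.201 for the same genes when each control was left out. With Il11 included, the share of downstream neighbours on the same strand that were at least 4-fold lower was 19.8% (16 of 81). It was 45% (9 of 20) with anchors at least 16-fold lower and 36.4% (8 of 22) within 10 kb. Taking the nearest gene with any count, it was 16.5% (14 of 85). Less Il11, whose neighbours were chosen for being lower, it was 18.8% (15 of 80), and 42.1% (8 of 19) with anchors at least 16-fold lower. The settings within 10 kb and less Il11 were chosen after seeing the data. Upstream on the opposite strand, with Il11 included, it was 23.9% (16 of 67), and 16.7% (3 of 18) with anchors at least 16-fold lower. Taking the nearest gene with any count it was 17.4% (12 of 69), and within 10 kb it was 50% (5 of 10). Less Il11 it was 22.7% (15 of 66), and 11.8% (2 of 17) with anchors at least 16-fold lower. Depth limits the neighbours: with 0 to 5 counts over 3 dexamethasone libraries, a remaining level under the floor could not be detected.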
